A study of Mus musculus with 2 samples.

Results

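The families of miR-297 and miR-466, and those of miR-467 and miR-669, are mouse miRNA families whose genes sit mostly as tandem copies inside Sfmbt2, a Polycomb group gene on chromosome 2. Their probes were taken by name from 2 Agilent mouse miRNA arrays, which gave 61 of the 1247 miRNAs and 162 of the 3105 probes. miR-297 contributed 3 miRNAs with 10 probes, miR-466 23 with 62, miR-467 12 with 36 and miR-669 23 with 54. By the names on the array, 26 were 3p arms, 25 were 5p arms and 10 carried no arm.

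Each array was hybridised with RNA from adult C57/BL6 bone marrow cells sorted as c-Kit+ Sca1+ Lineage-, a gate for hematopoietic stem cells and their earliest descendants. WT is the sample labelled CreERT with Tif1bw/w, and KO the sample labelled CreERT with Tif1bf/f. Both carry the inducible Cre, so only the loxP-flanked alleles separate them by label. How and when Cre was activated, its promoter and the number of animals per sample are not given in the sources used here. There was 1 array per genotype, so no test was possible and every difference below describes these 2 arrays.

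Tif1b (Trim28, KAP1) is a corepressor that zinc finger proteins recruit to retroelements and other targets, where it brings histone methylation and silencing. Sfmbt2 is imprinted in the mouse and is best known for its role in the placenta. A miRNA pairs with its targets mainly through its seed, bases 2 to 8 from the 5′ end, and 1 hairpin gives a 5p and a 3p arm. Many members of these families are built from stretches in which U and G, or A and C, alternate.

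RefSeq (GRCm38.p6) held mature sequences under the names of 7 members, all with genes outside Sfmbt2 alone or in addition to a copy inside it. They are shown because they include miR-467f and miR-466i-3p, which were measured on the KO array and not on the WT array. The capitals mark the seed.
miR-467f, chr11:69635419-69635439, minus strand: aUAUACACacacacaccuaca
miR-466i-3p, chr13:17747552-17747573, plus strand: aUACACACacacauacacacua
miR-466q, chr3:28419988-28420007, plus strand: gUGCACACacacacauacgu
miR-467g, chr5:34732872-34732892, minus strand: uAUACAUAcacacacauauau
miR-669n, chr3:115979905-115979924, plus strand: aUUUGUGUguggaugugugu
miR-466k, chr3:85467396-85467418, plus strand: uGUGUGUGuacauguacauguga
miR-466j, chr10:60960802-60960824, plus strand: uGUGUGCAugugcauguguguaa
These 7 miRNAs had 7 different seeds, so none of them shared a seed with another. All of their 16 probes were complementary to the 3′ end of the miRNA over the whole probe length. The probes therefore read the 3′ part of the miRNA.

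An array carries up to 4 probes of different length for a miRNA, which share their first bases and extend by 1 base each. The following probes carry the results, written as on the array, with the longest stretch of 2 alternating bases in capitals.
miR-466i-5p, 16 bases: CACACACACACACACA
miR-467f, 17 bases: tgtagGTGTGTGTGTGT
miR-466h-3p, 14 bases: GTGTGTGTGTGcgt
miR-466f-3p, 17 bases: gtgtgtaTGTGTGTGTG
miR-466f-3p, 14 bases: gtgtgtaTGTGTGT
miR-466i-3p, 19 bases: tagtgtgtaTGTGTGTGTG
miR-669p-3p, 19 bases: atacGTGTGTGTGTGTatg
miR-466g, 16 bases: TGTGTGTGcatgtgtc
miR-467a-3p, 20 bases: tgtagGTGTGTGTatgtata
miR-467b-5p, 18 bases: cATATAcatgcaggcact
The first probe is a pure alternation of C and A, the next ones hold G and T in alternation, and the last has a stretch of only 5 bases. The probes of miR-467f and miR-467a-3p begin with the same bases and part where the longer alternation of miR-467f goes on.

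Most positions in the array's mapping column lay inside Sfmbt2. RefSeq lists 81 genes of these families on GRCm38, of which 71 lie inside Sfmbt2 (chr2:10370440-10595253), within a stretch of 51.6 kb. The other 10 are elsewhere. Mir466q lies inside Tnik, Mir669n inside Slc30a7, Mir467g inside Grk4, Mir467f inside Fxr2, Mir466i inside Cdk13 and Mir466k inside the lncRNA gene Gm31419, while Mir297-1, Mir467h, Mir466j and Mir466f-4 lie in no other annotated gene. Whether a copy is intronic or exonic was not analysed here. The probes of 51 members matched copies inside Sfmbt2 only, those of 7 matched genes elsewhere only, and those of 3 (miR-669b-5p, miR-669l-5p and miR-669n) matched both. The 7 outside members are miR-466i-5p, miR-466i-3p, miR-466j, miR-466k, miR-466q, miR-467f and miR-467g.

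The signal of a probe often cannot be assigned to 1 gene. For 18 members the probes matched more than 1 gene of the families, inside or outside Sfmbt2, with up to 14 genes for miR-669a-5p. For 11 members the array itself listed several miRNA names on the same probe, such as miR-669a-3p, miR-669f-3p and miR-669o-3p on the probes named miR-669f-3p. The 17-base probe of miR-466f-3p is listed at chr2:10467002-10467018 in Mir466f-1, and by the mapping column matches 3 genes in all. The same bases end the 19-base probe of miR-466i-3p, whose gene is on chromosome 13. The probe of miR-466f-3p could therefore also read miR-466i-3p, and whether it did was not tested. The probes of miR-466i-5p are listed in Mir466i on chromosome 13, the 16-base probe at chr13:17747527-17747542. That of miR-466h-3p is listed in Mir466h, inside Sfmbt2, where the listed position (chr2:10514946-10514958) is 1 base shorter than the 14-base probe.

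A probe's signal is the mean of the processed spot intensities, without spots the software marked as outliers, and its SD is taken over spots. It is a technical spread within an array and says nothing about animals. A probe counted as measured when more than 50% of its spots were well above background. Where signals are called scaled, they were divided by the 75th percentile of the 113 probes measured on both arrays, which was 487 for WT and 213 for KO. The KO array was thus the dimmer of the pair by this measure, with a ratio of 0.437, while the negative control spots had nearly the same median (6.52 on WT and 6.92 on KO, with spot SDs of 3.88 and 3.996). Of the cell type markers, 5 of 9 stem and progenitor miRNAs were measured on WT and 4 on KO. The summed signal of all 9 before scaling was 531 and 523. The sum includes markers that were not measured and covers moves both ways. For example, miR-146b-5p was at 26.1 on WT and 5.52 on KO, and miR-155-5p at 94.1 and 135. No erythroid, mature lymphoid, stromal, muscle, epithelial or liver marker was measured on either array. The granulocyte and monocyte miRNA miR-223-3p was at 3726 on WT and 63.6 on KO and miR-223-5p was measured on neither, and the pan-blood miR-142-3p was at 658 and 137; their part in the results below was not tested. The array has no probe for Tif1b, so its loss was not checked, and fewer cells of a type cannot be told apart from less RNA per cell.

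Few members of the families were measured at all, and those that were lay mostly on the KO array. On WT, 1 of 61 members (1.64%) was measured, against 8.02% of all miRNAs. On KO it was 5 of 61 (8.2%), against 6.26% of all miRNAs. The 4 members measured on KO only make up 6.56% of the members, while 0.481% of all 1247 miRNAs were measured on KO only. Measured on WT only were 0 members and 2.25% of all miRNAs. The software's own detection call, which uses the total signal of a miRNA, gave 2 members on WT (3.28%, against 9.62% of all miRNAs) and 9 on KO (14.8%, against 7.94%), with 7 members (11.5%) on KO only against 1.04% of all miRNAs. By that call miR-466g, miR-669n and miR-669p-3p joined the 4 on KO only, and miR-467a-3p was detected on both. No member spot was saturated. Of the member spots, 39 of 2321 were well above background on WT and 118 of 2319 on KO, whereas over all miRNAs the number went from 3308 to 2510 of 49880.

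miR-466i-5p, the 5p arm of Mir466i, was the only member measured on both arrays and the brightest of the families on each. Its 15-base probe had spots from 72.1 to 112 on WT (median 94.7) and from 53.8 to 71.5 on KO (median 61.2). Its 16-base probe had spots from 96.8 to 137 on WT (median 114) and from 62.3 to 89.6 on KO (median 71.1). For both probes every WT spot was brighter than every KO spot before scaling, and KO was the brighter at 0 of 17 and 0 of 16 paired positions. The mean signals were 92.9 (spot SD 9.98) and 61.4 (spot SD 5.17) for 15 bases, and 114 (spot SD 10.3) and 73.1 (spot SD 7.56) for 16 bases.

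The scaled difference of miR-466i-5p turned the other way. It was 0.57 on the log2 scale, KO minus WT (spot SD 0.18), with 0.60 and 0.55 for the shorter and the longer probe. Without scaling it was -0.62. Set against the median of the 72 miRNAs that both arrays measured (5.77% of all) it was 0.27, and 13.9% of those 72 were at least 2-fold higher on KO by the scaled values. In rank by signal it was 51 of the 100 miRNAs measured on WT and 42 of the 78 measured on KO. Neither direction of the difference thus holds across scalings.

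miR-467f, miR-466f-3p, and both miR-466h-3p and miR-466i-3p were measured on KO only, and here the KO signal was higher with and without scaling. They were picked for passing the filter on KO and not on WT. A higher KO signal in them thus follows largely from that choice, and their values describe these members only. The fold is a lower bound: the scaled KO signal over the scaled WT signal of the lowest measured WT probe (17.7 before scaling) or of the dim probe itself, whichever is higher.

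**Figure D1:**
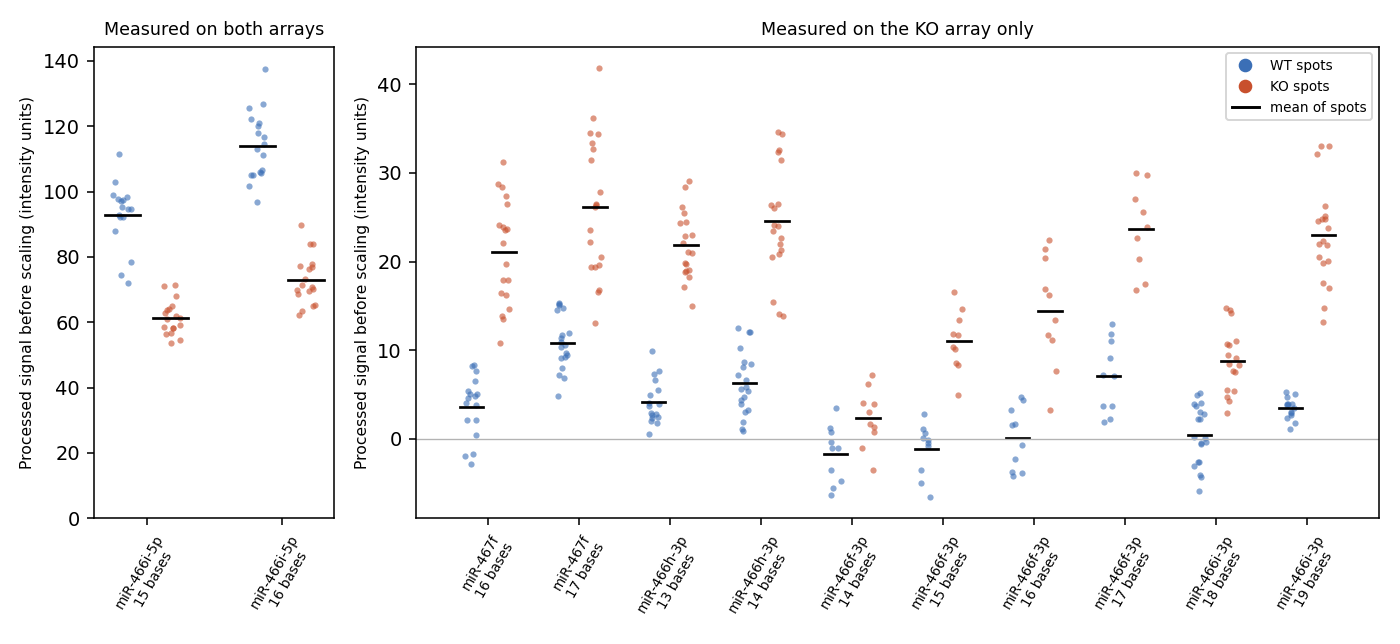
Processed signal before scaling of every spot (points) of the probes of the 5 measured members on the WT and KO arrays, with the mean as a bar. For miR-466i-5p all WT spots lie above all KO spots. For the other 4 members, picked as measured on KO only, the KO means lie above the WT means for every probe length. The highest is 26.1 for miR-467f.

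miR-467f comes from Mir467f, inside Fxr2 on chromosome 11. Its 17-base probe had spots from 4.82 to 15.3 on WT (median 10.6) and up to 41.8 on KO (median 26.3), and KO was the brighter at 19 of 19 positions. Its 16-base probe had spots from -2.78 to 8.38 on WT (median 4.65) and from 10.8 to 31.2 on KO (median 22.1), with no overlap between the arrays. The ranges of the longer probe overlap a little, at the dimmest KO spots. The scaled signal of miR-467f was at least 3.37-fold higher on KO.

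miR-466h-3p, whose gene lies inside Sfmbt2, had a 14-base probe with spots from 0.94 to 12.5 on WT (median 5.73) and from 13.8 to 34.6 on KO (median 24.1). Its 13-base probe had spots from 0.515 to 9.96 on WT (median 3.70) and up to 29.1 on KO (median 21.0). All KO spots of both probes were brighter than all WT spots. The shorter probe was not measured on KO, with 47.4% of its spots well above background. The scaled signal of miR-466h-3p was at least 3.17-fold higher on KO.

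miR-466f-3p, also listed in copies inside Sfmbt2, had the longest series of probes of the 4. From 14 to 17 bases its mean signals on KO were 2.37, 11.1, 14.4 and 23.7, and on WT they were -1.69, -1.17, 0.102 and 7.10. Only the longest probe was measured, on KO, with spots from 16.8 to 30.0 (median 23.9) against 1.91 to 13.0 on WT (median 7.18). KO was brighter at 9 of 9 positions of that probe and at 8 of 10 positions of the 14-base probe. The alternating stretch grows from 7 to 10 bases over this series of probes, together with the length. The scaled signal of miR-466f-3p was at least 3.06-fold higher on KO.

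miR-466i-3p is the other arm of the hairpin that gives miR-466i-5p. Its 19-base probe had spots from 1.13 to 5.29 on WT (median 3.62) and from 13.2 to 33.0 on KO (median 22.3), with no overlap. Its 18-base probe had mean signals of 0.438 (spot SD 3.36) on WT and 8.77 (spot SD 3.61) on KO, and was measured on neither array. The scaled signal of miR-466i-3p was at least 2.97-fold higher on KO. Before scaling, then, the 5p arm of this hairpin was dimmer on KO and the 3p arm brighter; only the 5p arm was measured on both arrays.

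All 4 lay at the bottom of what was measured. By signal they ranked 70, 74, 76 and 77 of the 78 miRNAs measured on KO, where the lowest measured probe was at 21.1. The bounds depend on the scaling: without it they were 1.47 for miR-467f, 1.39 for miR-466h-3p, 1.34 for miR-466f-3p and 1.30 for miR-466i-3p.

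The members measured on neither array that are described next were chosen by their mean scaled signal over both arrays. A high KO signal alone could bring in a member, as with miR-466g, so which array was brighter in them is a description of these members only. miR-669p-3p, from copies inside Sfmbt2, had mean signals of 1.74, 6.86, 5.19 and 12.4 on WT for 16 to 19 bases, and 10.2, 13.3, 17.8 and 18.1 on KO. miR-669n, whose probes also match Mir669c inside Sfmbt2, was at 4.67 and 9.73 on WT for 17 and 18 bases, and at 16.3 and 17.8 on KO. For miR-669n KO was brighter at 16 of 16 and 17 of 18 positions.

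miR-466g, with 1 gene inside Sfmbt2, was below 0 on WT with all 4 probes, from -4.42 to -0.228. On KO its 14-base, 15-base and 16-base probes were at 13.9, 12.8 and 18.9. Its KO spots were uneven, with spot SDs of up to 11.1. miR-466q, from Mir466q inside Tnik, was at 5.79 on WT and 12.9 on KO with the 17-base probe. miR-467d-3p was at 0.824 and 12.2 with its 17-base probe, where KO was brighter at 16 of 16 positions.

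The order of the arrays for miR-467a-3p depended on the probe and on the scaling. Its probes match 10 copies inside Sfmbt2. On WT its mean signals were 6.92, 5.61, 8.78 and 17.8 for 17 to 20 bases, and on KO 8.13, 8.85, 14.1 and 14.7. Before scaling, KO was brighter with the 3 shorter probes and WT with the longest, at which KO was brighter at 4 of 8 positions. After scaling all 4 were higher on KO, by 1.43, 1.85, 1.88 and 0.92 on the log2 scale. The probes begin with the same bases as those of miR-467f, whose 16-base probe was at 3.65 on WT and 21.1 on KO.

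The other 3p arms of miR-467 were dim on both arrays and higher on KO. miR-467e-3p was at 1.89 on WT and 9.19 on KO with the 21-base probe, and miR-467c-3p at 2.83 and 7.36. miR-467g, from Mir467g inside Grk4, was at -0.898 and 9.30. miR-669f-3p, which shares its probes with miR-669a-3p and miR-669o-3p, was at 5.73 and 9.51 with the 18-base probe. All of these values lie below the lowest measured probe of either array, so they order the arrays for a probe and give no level.

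Several 5p arms went the other way before scaling. miR-467b-5p was at 9.54 (spot SD 2.76) on WT and 0.863 (spot SD 2.14) on KO with the 18-base probe, and KO was brighter at 0 of 15 positions. Its 17-base probe was at 4.01 and 2.05. miR-467e-5p was at 4.61 and 0.151 with the 19-base probe, and at 2.98 and 3.28 with the 18-base probe. miR-467c-5p was at 7.16 and 4.399 with the 19-base probe. miR-669g, which has no arm in its name, was dimmer on KO with all 3 of its probes, from 4.02 to 2.23 with the 19-base probe, while its scaled difference was 0.35. None of these probes has an alternating stretch of more than 5 bases.

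The miR-297 family gave little signal. miR-297c-5p was at 5.67 on WT and 2.53 on KO with the 21-base probe and at 3.10 and 4.20 with the 20-base probe. miR-297a-3p was between -2.84 and -0.906 on WT and between -1.90 and 2.70 on KO. miR-297b-5p was between -1.48 and 3.45 on WT and between -3.85 and -0.0205 on KO. The spots of both arrays overlap for all of these probes, with spot SDs from 1.97 to 4.78.

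The remaining named 5p arms lay below the median of the negative controls on each array, as did the median miRNA spot (-1.55 on WT and -1.86 on KO). miR-669k-5p was at 4.71 on WT and 6.60 on KO with the 18-base probe, miR-466c-5p at 2.50 and 4.99 with the 19-base probe, and the single probe of miR-669l-5p at 1.71 and 5.12. The probe of miR-669l-5p is shared with miR-669d-5p and miR-467h.

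Over all 162 member probes, 116 (71.6%) were brighter on KO before scaling, against 40.3% of all 3105 miRNA probes and 38.6% of the 2943 probes of other miRNAs. The median signal of the member probes was -0.54 on WT and 1.95 on KO, and that of the other probes was -1.94 and -2.29. All of these medians lie below those of the negative control spots (6.52 on WT and 6.92 on KO). After scaling, 67.9% of the member probes were brighter on KO, against 29.5% of all. Division by the smaller KO percentile moves signals below 0 further down on KO than on WT. This and the later shares after scaling thus depend in part on the sign of signals near the background. For the 155 member probes measured on neither array the share before scaling was 71.6% (111 probes), against 40.3% of the 2781 such probes of other miRNAs. Where both arrays gave a probe a signal above 0, the median log2 difference was 2.18 with scaling and 0.99 without for 64 member probes, and 0.89 and -0.30 for 800 others. Signals above 0 on both arrays were had for 64 of the 162 member probes only, so these medians do not stand for all members. Of the 18 members with every probe above 0 on both arrays, 16 had a scaled difference above 0 and 2 below 0, while without scaling it was 12 and 6. The largest scaled differences were 4.72 for miR-466i-3p and 3.80 for miR-467e-3p, and the smallest -1.20 for miR-467e-5p and -1.02 for miR-467b-5p. All of these rest in part on signals near the background, with WT signals down to 0.438 for miR-466i-3p and 0.391 for miR-467e-3p. They give no reliable fold.

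The alternating stretch in the probe ordered the member probes more clearly than the family did. Of the 39 member probes with a stretch under 6 bases, 12 (30.8%) were brighter on KO before scaling, with medians of -2.11 on WT and -2.15 on KO. With 6 to 9 bases it was 88 of 105 (83.8%), with medians of -0.44 and 2.38. With 10 or more bases it was 16 of 18 (88.9%), with medians of 5.46 and 17.9. The other 2 of the last class are the probes of miR-466i-5p, whose stretch is of A and C and which were brighter on KO after scaling. The 16 with G and T were brighter on KO with and without scaling, with a median of 4.70 on WT and 15.6 on KO. Within 6 to 9 bases, 60 of 67 probes with G and T were brighter on KO before scaling and 26 of 35 with A and C. After scaling the shares were 23.1% under 6 bases, 79% with 6 to 9 and 100% (18 of 18) with 10 or more.

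**Figure D2:**
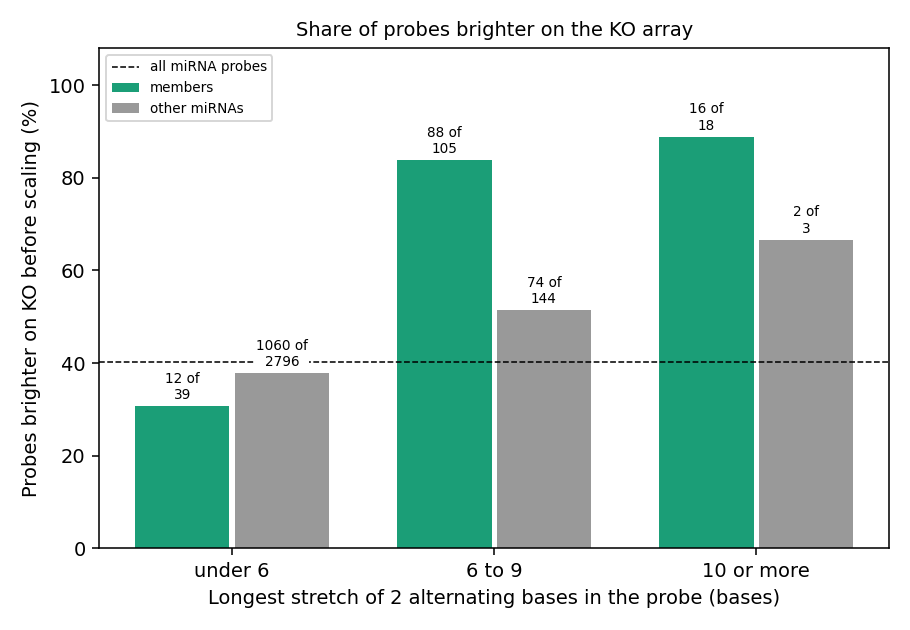
Share of probes brighter on the KO array before scaling (%), by the longest stretch of 2 alternating bases in the probe, for members (green) and other miRNAs (grey), with the number of probes above each bar. The members go from 30.8% under 6 bases to 88.9% at 10 or more, and the dashed line is the 40.3% of all miRNA probes.

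**Figure D3:**
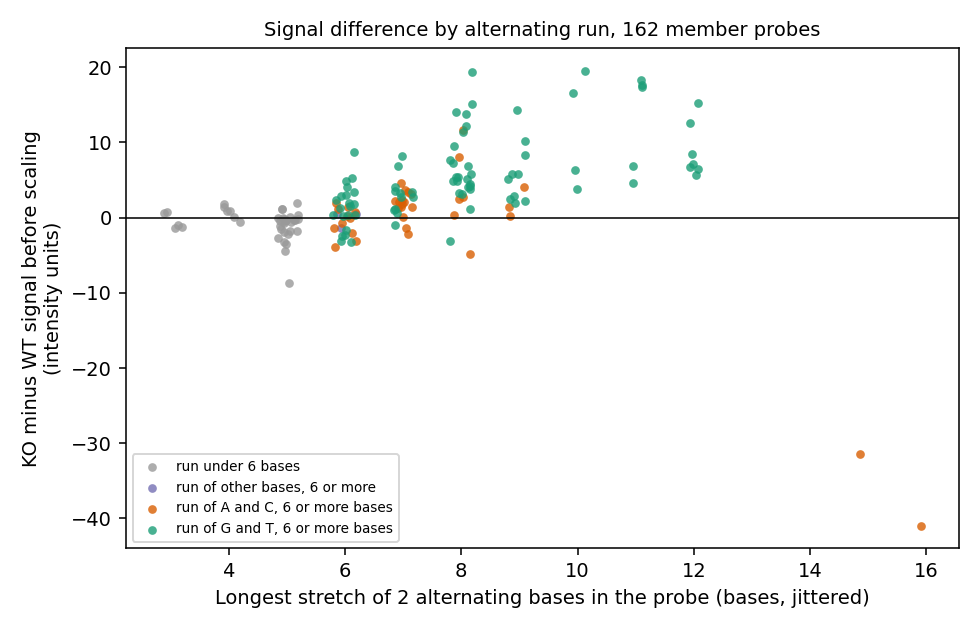
KO minus WT mean signal before scaling (intensity units) of each member probe against its longest stretch of 2 alternating bases, coloured by the bases of the stretch. Probes under 6 bases lie around 0 or below, all probes with G and T at 10 or more bases lie above 0, and the 2 probes of miR-466i-5p lie lowest, at 15 and 16 bases.

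Across the 162 member probes, Spearman's rho between the stretch and the signal was 0.38 on WT and 0.75 on KO, and 0.66 for the KO minus WT signal before scaling. Without the probes of miR-466i-5p the last value was 0.73. These are descriptions across probes, which share the array, overlap in sequence and in part read the same RNA. For the 2943 other probes the same values were 0.068, 0.075 and 0.064. Probe length went with the signal more in the other probes than in the members: its rho with the signal was 0.32 on WT and 0.067 on KO for members, and 0.59 and 0.57 for the other probes.

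The same classes were counted in probes of other miRNAs, where only the longest stretches were few. With 6 to 9 bases, 74 of 144 (51.4%) were brighter on KO before scaling, including 14 of 22 with G and T, 28 of 46 with A and C, 22 of 28 with A and G and 6 of 36 with C and T. After scaling it was 64 of 144 (44.4%), with 6 of 22 (27.3%) for G and T and 27 of 46 (58.7%) for A and C. With under 6 bases it was 1060 of 2796 (37.9%) before scaling and 740 (26.5%) after it. Only 3 other probes had 10 or more bases, all of A and C. That of miR-3082-5p with 16 bases was at 17.9 on WT and 31.9 on KO. Those of miR-574-5p were at 21.0 and 28.7 with 17 bases and at 40.04 and 37.8 with 18 bases. Together with the 2 probes of miR-466i-5p, the long A and C stretches thus included probes brighter and probes dimmer on KO before scaling, while after scaling all of these probes were brighter on KO (3 of 3 and 2 of 2).

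The plot of KO against WT signal shows the member probes by the bases of their stretch.

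**Figure D4:**
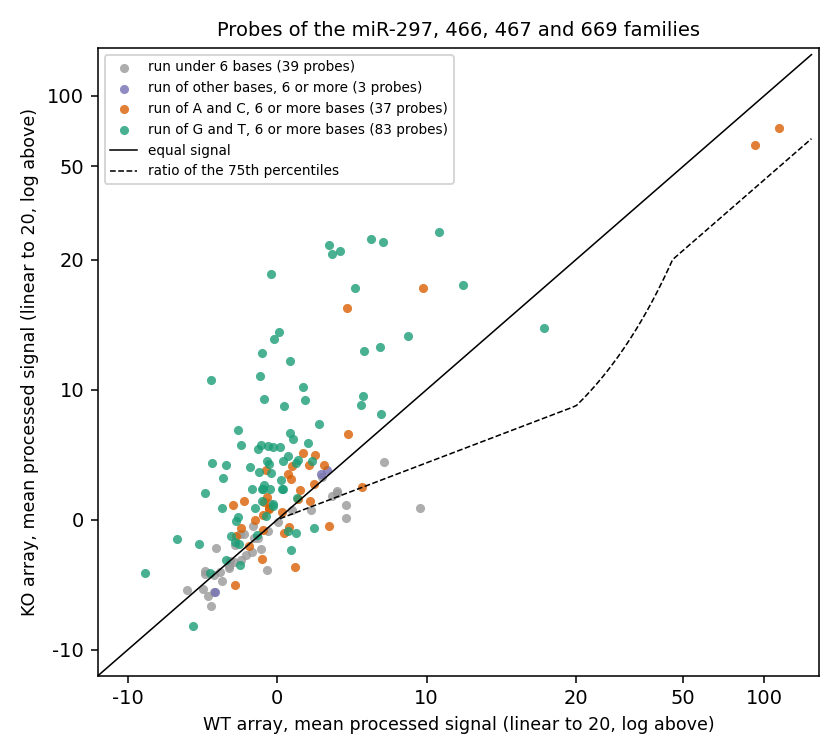
Mean processed signal before scaling of the 162 member probes on the KO array against the WT array (intensity units, axes linear to 20 and logarithmic above). Most probes with a stretch of G and T lie above the line of equal signal, the 2 probes of miR-466i-5p lie between that line and the dashed line, which is the 0.437 ratio of the 75th percentiles, and the 39 probes with a stretch under 6 bases lie between -6.63 and 9.54 on both axes.

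The members were next split by arm and family. Before scaling, 66 of 76 probes of 3p arms (86.8%) were brighter on KO, 33 of 61 of 5p arms (54.1%) and 17 of 25 of members with no arm in the name (68%). After scaling the shares were 78.9%, 50.8% and 76%. Most 3p probes hold a stretch of G and T of 6 or more bases, and no 5p probe does. The split by arm thus overlaps with that by stretch, and they were not told apart. For probes above 0 on both arrays the median scaled log2 difference was 2.97 for 3p, 1.33 for 5p and 2.35 with no arm. These came from 32, 23 and 9 probes, and without scaling they were 1.77, 0.14 and 1.16. For the 800 such probes of other miRNAs it was 0.89 with scaling and -0.30 without. By family, 6 of 10 probes of miR-297 and 44 of 62 of miR-466 were brighter on KO before scaling. For miR-467 it was 25 of 36 and for miR-669 41 of 54. The median scaled log2 differences of the families were 0.83, 2.35, 2.17 and 2.15. The sign for miR-297, from 2 probes, was negative without scaling (-0.36).

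The probes were also split by whether they match copies inside Sfmbt2. Of the 141 probes that match copies inside Sfmbt2 only, 101 (71.6%) were brighter on KO before scaling, and of the 16 that match genes elsewhere only, 12 (75%). Of the 5 that match both, 3 were. After scaling the shares were 66% inside and 81.2% outside, and with 16 outside probes neither likeness nor difference is shown. The medians on WT and KO were -0.58 and 1.43 inside and 0.078 and 7.47 outside, and 7 of the 16 outside probes have a stretch of 10 or more bases, against 11 of the 141 inside. Inside Sfmbt2 the share was 33.3% with stretches under 6 bases (12 of 36), 83% with 6 to 9 (78 of 94) and 100% with 10 or more (11 of 11). Outside it was 0 of 2, 7 of 7 and 5 of 7. Within Sfmbt2, 64 of 74 probes of 3p arms (86.5%) and 32 of 56 of 5p arms (57.1%) were brighter on KO. The overlap of arm and stretch holds there too.

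Probes that differ in length were also compared within each member. Of 101 steps from a probe to the next longer one, the longer was brighter in 74 (73.3%) on WT and 77 (76.2%) on KO, and for the 1757 steps of other miRNAs it was so in 68.8% and 67%. Where the longer probe had a stretch of 8 or more bases, it was brighter in 32 of 43 steps (74.4%) on WT and 38 (88.4%) on KO. Where its stretch was under 6 bases, it was 15 of 21 on WT and 13 of 21 on KO. Many of the steps leave the stretch as long as before. They therefore do not separate the stretch from the probe length or from the miRNA.

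**Figure D5:**
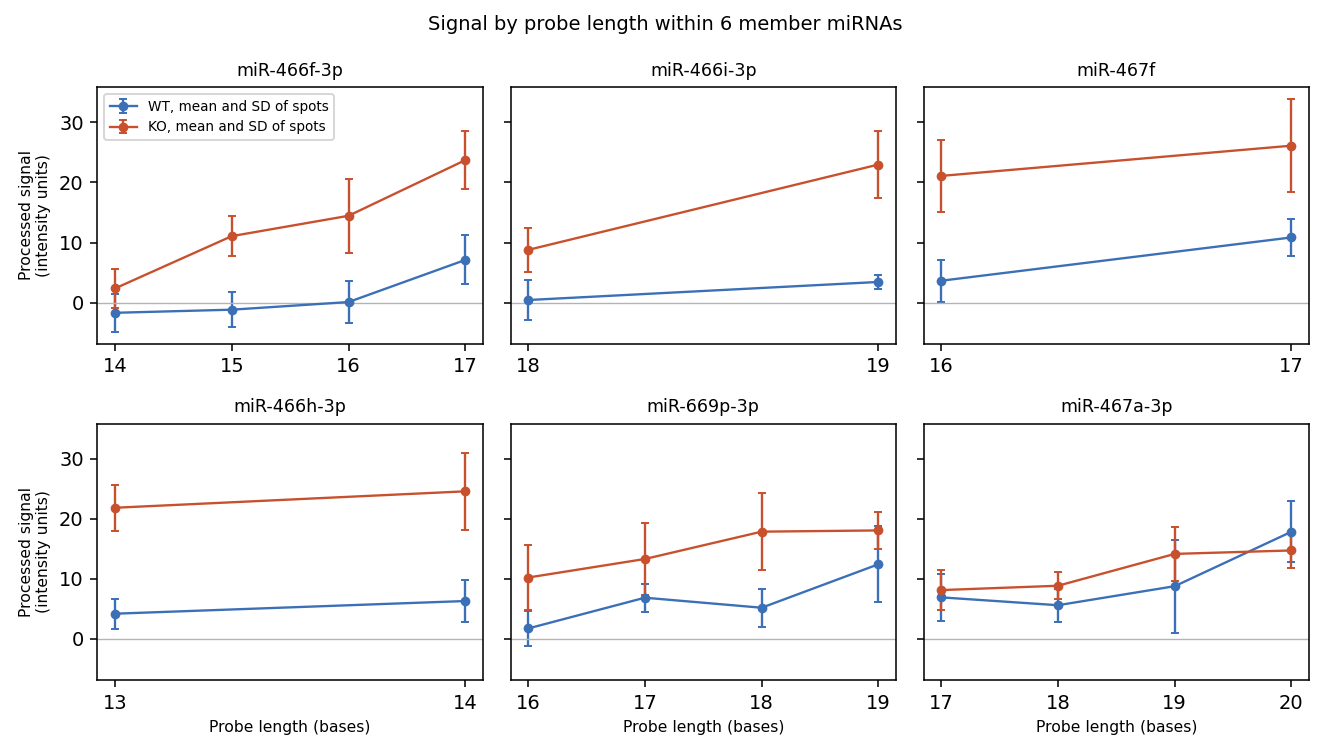
Mean processed signal before scaling (intensity units) against probe length for 6 members on the WT and KO arrays, with the SD over spots as error bars. For miR-466f-3p the KO mean goes from 2.37 at 14 bases to 23.7 at 17 bases, for miR-466h-3p and miR-467f KO lies above WT at both lengths, and for miR-467a-3p the arrays cross at 20 bases.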

How the data were processed

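Small RNA was measured on 1 Agilent 1-colour array for WT and 1 for KO, grouped by the genotype in the labels. The deposited array files hold spot intensity on a linear scale, from 100 ng of total RNA labelled with Cy3 per the labels' protocols. The submitters' processing notes name Agilent Feature Extraction 10.7.3. It had removed a spatial trend, per the file headers, so signals can be below 0. The lowest measured probe was at 17.7 on WT and 21.1 on KO, and signals below that lie near the background. The number of arrays limits the precision.

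From these, probe means without outlier spots were computed, scaled by the 75th percentile of the probes measured on both arrays and compared as log2 KO minus WT. The spot SD of a difference is over spot positions. The mapping column mixes genome builds: of 584 listed positions of member probes, 375 fell in a GRCm38 RefSeq gene of the families, 181 of the others lay exactly 78373 bases below such a position of the same probe, and 28 did not. Only the 375 were used, without conversion. RefSeq held 7 of 61 mature sequences by name.

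The members, lists and thresholds were chosen with earlier results of these data known. Named members are those measured on either array, the 12 brightest others, the 2 brightest of each family and arm, and the 3 largest and 3 smallest differences among members with every probe above 0 on both arrays. Of other miRNAs, those measured with a stretch of 10 or more bases are named. The numbers of probes and the marker lists describe the arrays, with no test. Alternatives covered scaling, background correction (limma 3.58.1 normexp, offset 50), filters, spot and probe summaries, the software's total gene signal and the value table. The computation was tested on simulated data. R 4.3.3 and Python 3.11.15 were used, with scipy 1.17.1, pandas 2.3.3 and numpy 2.4.6.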

Additional observations from a re-analysis of the deposited data

How the results depend on the processing

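No paired analysis was possible because there was a single array for WT and for KO. Of the values recomputed under an alternative, 127 were counted as the same, 41 as moved and 5 as reversed. The same meant within the spot SD for differences and medians, and within 1.5 times for counts and bounds. Shares by stretch had to stay inside an exact binomial interval, which treats probes as independent. These limits are wide near the background: the median over member probes counted as the same at 2.18 with scaling and 0.99 without. The number of members measured on WT was 2 with a looser filter (over 25% of spots), the total gene signal or the value table. On KO it was 1 with a stricter filter (over 90%), 8 with the looser one and 9 with the total gene signal or the value table. For miR-466f-3p, miR-466h-3p, miR-466i-3p and miR-467f the bounds were 1.34, 1.39, 1.30 and 1.47 without scaling, and 1.44, 1.49, 1.39 and 1.58 with the 75th percentile over all probes. They were 5.57, 5.76, 5.39 and 5.72 with the looser filter. With the total gene signal or the value table the same computation gave 7.44, 18.1, 8.96 and 18.4. The software sets all 4 to its floor of 0.1 on WT, so the divisor there was the lowest value detected on WT. With normexp those of miR-466h-3p and miR-467f were 2.11 and 2.14. The stricter filter left no member to bound. The difference of miR-466i-5p was -0.62 without scaling, -0.52 with the percentile over all probes and 1.05 with the total gene signal or the value table. The median of miR-297 was -0.36 without scaling, -0.26 with the percentile over all probes and -0.36 with quantile normalization. That of miR-466 was 1.16 without scaling and 0.99 with normexp. With normexp, which puts all 162 probes above 0, 3p arms were at 1.02, 5p arms at 0.96 and members without an arm at 1.06. Members outside Sfmbt2 were then at 1.07 and those inside it only at 0.99, and the families ranged from 0.97 to 1.04. These medians lay closer together than with the processing used above. Members outside Sfmbt2 were at 1.90 without scaling, 2.001 with the percentile over all probes, 2.34 with quantile normalization and 2.09 with spots paired by position. The share of probes brighter on KO after scaling with stretches under 6 bases was 46.2% with quantile normalization. The cause of these changes was not tested. Shares by stretch with spots paired by position were not run. Nearly all member signals lie near the background, which limits every difference but that of miR-466i-5p.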
